A study of Mus musculus with 2 samples.

Results

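Cells make cholesterol from acetyl-CoA through mevalonate, farnesyl diphosphate and squalene, and make fatty acids from the same acetyl-CoA through malonyl-CoA. Many genes of both routes carry promoter elements bound by the sterol regulatory element-binding proteins (SREBPs), which are made as membrane precursors in the endoplasmic reticulum. Scap escorts the precursors to the Golgi for cleavage when membrane sterol is low, and the Insig proteins hold Scap back when it is high. In macrophages and dendritic cells, sterol and fatty acid synthesis supply membranes and lipid droplets, and both are known to be altered by Toll-like receptor and interferon signalling.

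The genes described here are 34 named members of these routes: 7 of the mevalonate branch, 11 of the squalene and sterol branch, 6 of SREBP control and sterol transport, and 10 of the fatty acid branch. They were taken by Entrez Gene number from the 18090 IDs listed in either library, and 33 of the 34 were found. No row matched Hmgcs1, the cytosolic HMG-CoA synthase at the entry to the mevalonate branch, so it has no expression value here. The members were listed by pathway role, with earlier results of these data known.

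RNA was sequenced from 2 libraries of C57BL/6 bone marrow dendritic cells (DC), 1 of mature DC and 1 of immature DC. Both were grown for 6 days in RPMI-1640 with the growth factor GM-CSF (10 ng/ml) and the cytokine IL-4 (1 ng/ml). The mature DC are taken to be the cells the protocol calls sample 2, which received LPS, a bacterial cell wall lipid sensed by Tlr4, at 100 ng/ml for 24 h in the same cytokines. The immature DC have no LPS in the protocol, which does not say how long they stayed in culture. Both passed a flow cytometry sort for surface CD86 and I-Ab (a class II MHC protein) with gates that are not given, and neither the number of mice nor any pooling is stated. The strain, the cytokines and the markers of the sort were common to both libraries. Whether the gates were the same is not known.

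Reads counted to genes numbered 8.07 M in the mature and 7.56 M in the immature library. There is 1 library per state, so no test of the states was possible, and the values below compare these 2 libraries and not the states. Levels are RPKM, reads per kilobase of gene model and per 1000000 counted reads, which adjusts for model length and depth. Only uniquely placed reads were counted, while the whole model length was the divisor. Comparison of levels between genes, and of their sums, is therefore rough. This holds most where reads covered much less of the model than in genes of similar read density (Idi1, Fdft1, Fdps and Ebp). A gene of 1000 bases with 3 reads stands at 0.372 RPKM in the mature and 0.397 RPKM in the immature library. Ratios are mature over immature RPKM with an exact 95% interval in parentheses. It covers only counting error and not the spread between libraries of one state. It also treats reads as independent molecules, which they are not, so it can be too narrow. In bulk RNA, fewer cells that express a gene and less of its RNA per cell cannot be told apart.

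Among the 32 members with 1 RPKM or more in either library, 14 were at least 2-fold lower in mature DC, 0 were at least 2-fold higher, and 18 lay within 2-fold. Calls of 2-fold use log2 of (mature RPKM + 1) over (immature RPKM + 1), which understates the change of low genes. Over all 11547 genes compared in the same way, 11.3% were at least 2-fold lower and 9.05% at least 2-fold higher. The members' median log2 fold was -0.84, against 0.026 over all compared genes. Of the 32, 28 were lower in mature DC by any size, where 48.4% of all compared genes were, and for 26 the counting interval lay wholly below a ratio of 1, where 33.8% of all compared genes did.

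The 33 listed members together took 16995 reads (0.211% of the library) in mature DC and 30703 reads (0.406%) in immature DC. Their median level was 9.38 RPKM in mature DC and 25.7 RPKM in immature DC. At least 10 RPKM was reached by 16 members in mature DC and by 25 in immature DC. Acly and Scd2 alone held 41.5% of the members' reads in each library. With these 2 left out, a choice made after their values were seen, the sum of RPKM was 418 in mature DC and 742 in immature DC.

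**Figure D1:**
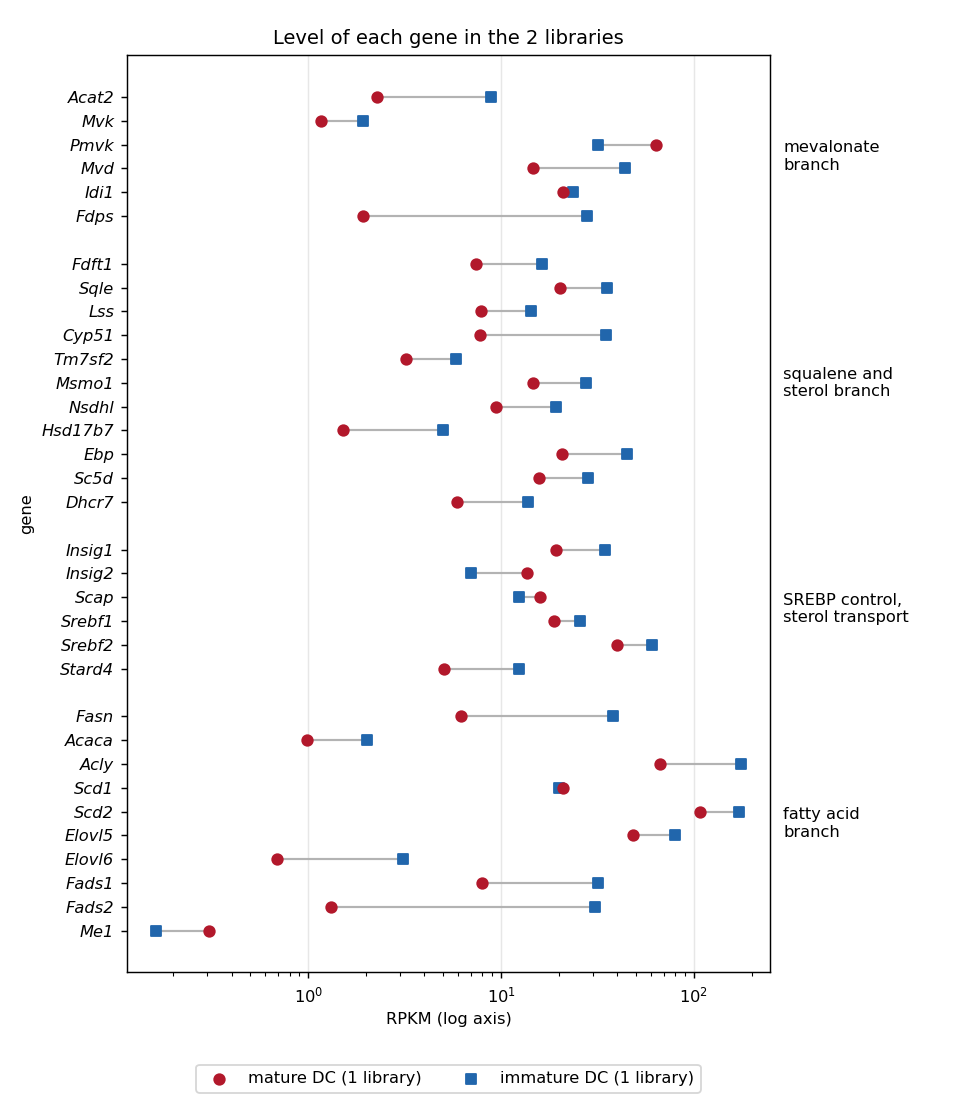
RPKM on a log axis for the 33 listed members, grouped by branch and ordered along the pathway, with circles for the mature DC library and squares for the immature DC library (1 library each, no error bars). Most circles lie left of their squares; Pmvk, Insig2, Scap, Scd1 and the barely detected Me1 lie the other way.

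Promoters are shown for the 3 members with the lowest log2 folds that have a RefSeq entry (Fads2, Fasn and Cyp51) and for the member with the highest, Pmvk, because these span the range of the values that follow. Each is the 250 bases before the annotated start, 5′ to 3′ on the gene's strand, from the RefSeq table of build GRCm38.p6; the build named for the reads is mm8, so these positions are not those of the read data. Pmvk has 2 annotated starts, of which the one farther upstream is shown. Capitals mark CCAAT, the core of the NF-Y site, and GGGCGG, the GC box bound by Sp1, on either strand. Both factors are known to act beside SREBPs on sterol genes.

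Fads2, chr19:10101504-10101753, minus strand: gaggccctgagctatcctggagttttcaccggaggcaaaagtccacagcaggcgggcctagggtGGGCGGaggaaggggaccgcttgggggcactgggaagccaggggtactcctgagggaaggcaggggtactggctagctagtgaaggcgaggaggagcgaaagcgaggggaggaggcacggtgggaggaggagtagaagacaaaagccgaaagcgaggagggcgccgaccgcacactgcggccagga

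Fasn, chr11:120824548-120824797, minus strand: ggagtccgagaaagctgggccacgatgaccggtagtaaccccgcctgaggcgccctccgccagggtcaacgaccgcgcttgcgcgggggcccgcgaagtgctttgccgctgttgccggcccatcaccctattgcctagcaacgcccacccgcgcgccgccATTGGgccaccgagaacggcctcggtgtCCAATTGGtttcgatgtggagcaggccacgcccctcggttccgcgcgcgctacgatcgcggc

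Cyp51, chr5:4104698-4104947, minus strand: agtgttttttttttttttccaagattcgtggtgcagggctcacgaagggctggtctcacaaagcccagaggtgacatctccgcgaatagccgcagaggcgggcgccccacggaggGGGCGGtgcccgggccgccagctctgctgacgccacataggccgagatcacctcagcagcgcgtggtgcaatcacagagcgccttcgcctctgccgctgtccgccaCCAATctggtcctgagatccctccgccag

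Pmvk, chr3:89454291-89454540, plus strand: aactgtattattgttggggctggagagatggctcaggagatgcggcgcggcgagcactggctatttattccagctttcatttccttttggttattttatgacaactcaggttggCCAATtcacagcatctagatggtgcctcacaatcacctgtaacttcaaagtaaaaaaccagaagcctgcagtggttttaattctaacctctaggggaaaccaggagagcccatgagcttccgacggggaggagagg

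RefSeq gave a promoter for 27 of the 34 members. CCAAT occurred on either strand in the 250 bases before at least 1 start of 21 of the 27, or 77.8%, against 37.5% of the 27025 genes in the table. GGGCGG occurred in 22 of the 27, or 81.5%, against 35.4% of all. These background shares take every gene with a RefSeq promoter, expressed or not, and were not matched for GC content. Whether the members differ from other expressed genes in these motifs was not tested. The strict sterol element TCACNCCAC occurred in 1 of the 27, Hmgcs1, where it began 137 bases before the start, against 1.22% of all genes. The motifs were searched on both strands. CCAAT and GGGCGG share no letters at any shown site, while in Fasn the matches that begin 62 and 59 bases before the start overlap each other on opposite strands. In these windows Fads2 held 1 GGGCGG and no CCAAT, Fasn 3 CCAAT and no GGGCGG, Cyp51 1 of each, and Pmvk 1 CCAAT. The window of the other Pmvk start, which is not shown, held no CCAAT and no GGGCGG. Pmvk thus counts among the 21 only through the shown start. A match is a run of letters and was not tested as a binding site.

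The mevalonate branch runs from acetyl-CoA to farnesyl diphosphate, the building block of sterols and prenyl groups. Of its 6 listed members, 3 were at least 2-fold lower in mature DC and 3 lay within 2-fold, with a median log2 fold of -0.98, which ranged from -1.55 to -0.55 over the alternative settings. Summed over the branch, the level was 104 RPKM in mature DC and 138 RPKM in immature DC. The members did not move as a block: they span from Fdps at the low end to Pmvk at the high end.

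Acat2, the cytosolic thiolase that joins 2 acetyl-CoA, had 38 reads (2.27 RPKM) in mature DC and 139 reads (8.85 RPKM) in immature DC, 3.9-fold lower (2.71 to 5.75). Mvk, mevalonate kinase, was scarce, with 16 reads (1.16 RPKM) in mature DC and 25 reads (1.93 RPKM) in immature DC. Its ratio of 0.6 (0.299 to 1.17) did not differ from 1 beyond counting error. Pmvk, phosphomevalonate kinase, ran against the rest of the branch. It had 615 reads (63.3 RPKM) in mature DC and 290 reads (31.8 RPKM) in immature DC, a ratio of 1.99 (1.73 to 2.29). Its log2 fold of 0.97 on the RPKM + 1 scale lies just under the 2-fold line.

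Mvd, the decarboxylase that makes isopentenyl diphosphate, had 221 reads (14.7 RPKM) in mature DC and 618 reads (43.8 RPKM) in immature DC, 2.98-fold lower (2.56 to 3.5). Pmvk and Mvd catalyse consecutive steps, and Pmvk stood above Mvd in mature DC but below it in immature DC. Idi1, the isomerase of the next step, was nearly level, with 489 reads (21 RPKM) in mature DC and 515 reads (23.6 RPKM) in immature DC, a ratio of 0.89 (0.784 to 1.01). Reads covered 40.2% of the Idi1 model in mature DC and 39.8% in immature DC, against medians of 89.5% in mature and 90.6% in immature DC among genes with a similar number of reads per base (within 25%). Why part of the model had no unique reads was not tested.

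Fdps, farnesyl diphosphate synthase, had the largest difference of the branch. It had 19 reads (1.92 RPKM) in mature DC and 259 reads (28 RPKM) in immature DC, 14.6-fold lower (9.13 to 24.6). In immature DC its reads covered 51.8% of the model, where genes of similar read density had a median of 91.5%. In GENCODE vM21, 26.7% of its exonic bases are shared with the predicted gene Gm43738 on the same strand. The annotation behind the counts is not given, and whether this overlap affected the Fdps counts was not tested.

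The squalene and sterol branch turns farnesyl diphosphate into squalene, lanosterol and cholesterol. All 11 members were lower in mature DC, and for all 11 the counting interval lay below a ratio of 1. The 2-fold line was passed by 5 of them and not by the other 6. The log2 folds ran from -2.04 to -0.69 with a median of -0.96, a narrower spread than in the mevalonate branch. The summed level was 114 RPKM in mature DC and 246 RPKM in immature DC, 2.15-fold lower.

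Fdft1, squalene synthase, had 172 reads (7.39 RPKM) in mature DC and 354 reads (16.2 RPKM) in immature DC, 2.2-fold lower (1.83 to 2.65). Its coverage was only 39.7% in mature and 42.8% in immature DC, and 18.3% of its exonic bases overlap exons of Ctsb, a cathepsin gene, on the opposite strand. The strandedness of the libraries is not given in the sources used here, so reads of the 2 genes cannot be told apart there. Sqle, squalene epoxidase, a rate-limiting enzyme of the branch, had 447 reads (20.1 RPKM) in mature DC and 740 reads (35.6 RPKM) in immature DC, 1.77-fold lower (1.57 to 1.99). Lss, which closes the rings to form lanosterol, had 203 reads (7.88 RPKM) in mature DC and 347 reads (14.4 RPKM) in immature DC, 1.82-fold lower (1.53 to 2.18).

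Cyp51, the lanosterol demethylase, had the largest difference of the branch. It had 272 reads (7.74 RPKM) in mature DC and 1154 reads (35 RPKM) in immature DC, 4.53-fold lower (3.96 to 5.19). The reductase Tm7sf2 was scarce, with 39 reads (3.23 RPKM) in mature DC and 66 reads (5.83 RPKM) in immature DC, 1.81-fold lower (1.2 to 2.76). It shares 12.1% of its exonic bases with Vps51 on the same strand. The C4 demethylation enzymes followed: Msmo1, the methyl oxidase, was 1.88-fold lower (1.58 to 2.23) at 14.7 RPKM in mature DC and 27.5 RPKM in immature DC.

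Nsdhl, the decarboxylating dehydrogenase that acts with Msmo1, had 9.38 RPKM in mature DC and 19.2 RPKM in immature DC. Its plain ratio was 2.05-fold lower (1.69 to 2.48), while its log2 fold of -0.96 on the RPKM + 1 scale is just short of 2-fold. Hsd17b7, the ketoreductase of the same complex, had 56 reads (1.52 RPKM) in mature DC and 172 reads (4.97 RPKM) in immature DC, 3.28-fold lower (2.41 to 4.52). The 3 enzymes that remove the C4 methyl groups were thus all lower, by 1.88-fold to 3.28-fold.

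The late enzymes had ratios close to one another, though their levels differed. Ebp, the sterol isomerase, had 292 reads (20.6 RPKM) in mature DC and 597 reads (45 RPKM) in immature DC, 2.18-fold lower (1.89 to 2.52), with reads over 62.3% of its model in mature DC and 61.7% in immature DC. Sc5d, the desaturase that follows, had 285 reads (15.7 RPKM) in mature DC and 483 reads (28.4 RPKM) in immature DC, 1.81-fold lower (1.56 to 2.1). Dhcr7, which makes cholesterol from its 7-dehydro precursor, had 136 reads (5.92 RPKM) in mature DC and 297 reads (13.8 RPKM) in immature DC, 2.33-fold lower (1.9 to 2.88). The counting intervals of these 3 ratios overlap one another.

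**Figure D2:**
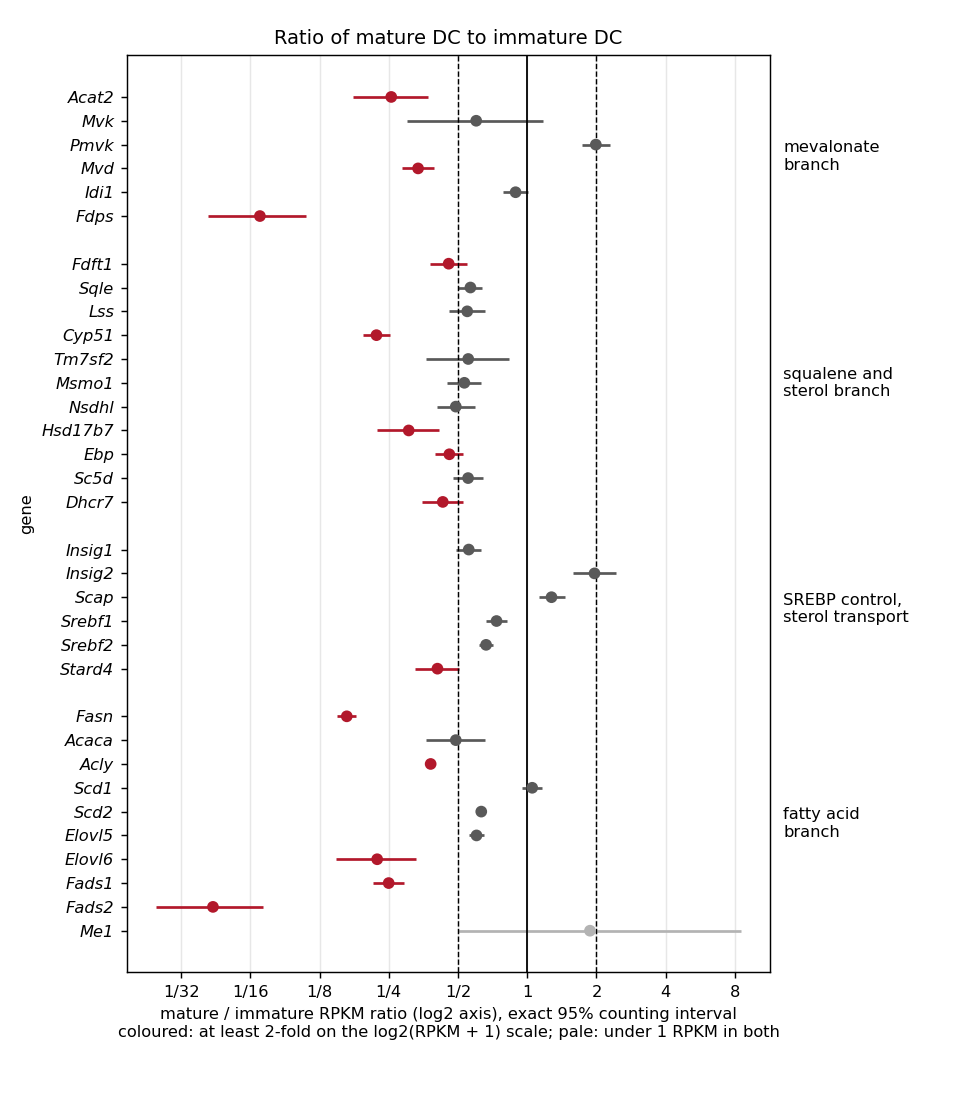
Mature over immature RPKM ratio of each listed member on a log2 axis, with the exact 95% counting interval as a line, a solid line at a ratio of 1 and dashed lines at 2-fold either way. The 14 members at least 2-fold lower are coloured; Fads2 and Fdps lie farthest to the left, and Pmvk and Insig2 near the upper 2-fold line.

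Of the 6 genes of SREBP control and sterol transport, 1 was at least 2-fold lower, 0 were higher, and the median log2 fold was -0.50. Over all compared genes, 11.3% were at least 2-fold lower, 9.05% were at least 2-fold higher, and 9192 of 11547 lay within 2-fold. Srebf2, which encodes the SREBP with most weight on sterol genes, had 1481 reads (40.1 RPKM) in mature DC and 2096 reads (60.6 RPKM) in immature DC, 1.51-fold lower (1.41 to 1.62). Srebf1, whose 1c product acts mainly on fatty acid genes, had 655 reads (18.9 RPKM) in mature DC and 835 reads (25.7 RPKM) in immature DC. It was 1.36-fold lower (1.23 to 1.51). Counts per gene do not separate its 1a and 1c transcripts. Srebf2 held 69.3% (67.3 to 71.3) of the reads of the pair in mature DC and 71.5% (69.8 to 73.1) in immature DC, intervals that overlap.

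Scap, the escort of the precursors, had 551 reads (15.8 RPKM) in mature DC and 405 reads (12.4 RPKM) in immature DC, a ratio of 1.27 (1.12 to 1.45); a predicted transcript on the opposite strand covers 13.2% of its exonic bases. The Insig genes ran in opposite directions. Insig1, itself a target of SREBP, had 414 reads (19.2 RPKM) in mature DC and 697 reads (34.6 RPKM) in immature DC, 1.8-fold lower (1.59 to 2.03). Insig2, which does not depend on SREBP in the same way, had 270 reads (13.7 RPKM) in mature DC and 129 reads (6.96 RPKM) in immature DC, a ratio of 1.96 (1.58 to 2.44). Insig2 accordingly held 39.5% (35.8 to 43.2) of the pair's reads in mature DC and 15.6% (13.2 to 18.3) in immature DC. Per length, Insig1 stood 1.41 times as high as Insig2 in mature DC and 4.96 times as high in immature DC.

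Stard4, a soluble carrier that moves sterol between membranes and is a known SREBP target, had 122 reads (5.06 RPKM) in mature DC and 281 reads (12.4 RPKM) in immature DC. It was 2.46-fold lower (1.98 to 3.07) and is the 1 gene of this group past the 2-fold line.

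The fatty acid branch had a median log2 fold of -1.28 over its 9 compared members, or -0.68 with a pseudocount of 5 RPKM. Of these, 5 were at least 2-fold lower in mature DC, 0 higher and 4 within 2-fold. The summed level was 261 RPKM in mature DC and 552 RPKM in immature DC, 2.11-fold lower. Fads2, Fasn, Elovl6 and Fads1 were at least 4-fold lower on the plain ratio, while Scd1 was level and Scd2 and Elovl5 were under 2-fold lower.

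Acly, ATP citrate lyase, which supplies cytosolic acetyl-CoA to both routes, had the highest level of all members in immature DC. It had 2323 reads (66.7 RPKM) in mature DC and 5727 reads (175 RPKM) in immature DC, 2.63-fold lower (2.51 to 2.76). Acaca, the carboxylase that makes malonyl-CoA, had 72 reads (0.985 RPKM) in mature DC and 138 reads (2.02 RPKM) in immature DC, 2.05-fold lower (1.53 to 2.76). At this low level the RPKM + 1 scale gives a log2 fold of -0.60, so it was not counted as 2-fold, and reads covered 18.2% of its long model in mature DC and 24.3% in immature DC. Fasn, the synthase that builds palmitate, had 499 reads (6.22 RPKM) in mature DC and 2850 reads (37.9 RPKM) in immature DC. It was 6.1-fold lower (5.54 to 6.72).

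The stearoyl-CoA desaturases Scd1 and Scd2 make monounsaturated fatty acids. Scd1 had 823 reads (21 RPKM) in mature DC and 734 reads (20 RPKM) in immature DC, a ratio of 1.05 (0.95 to 1.16) that did not differ from 1 beyond counting error. Scd2 was the more abundant of the pair and the highest member in mature DC, with 4732 reads (107 RPKM) there and 7028 reads (170 RPKM) in immature DC, 1.59-fold lower (1.53 to 1.65). Scd2 held 85.2% (84.2 to 86.1) of the pair's reads in mature DC and 90.5% (89.9 to 91.2) in immature DC. The genes are close relatives, and reads that fit both would be left out of a count of unique reads; coverage was between 91.8% and 95.5% for both.

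The elongases differed from each other. Elovl5, which lengthens polyunsaturated fatty acids, had 1089 reads (48.1 RPKM) in mature DC and 1696 reads (80 RPKM) in immature DC, 1.66-fold lower (1.54 to 1.8). Elovl6, which lengthens palmitate to stearate, had 33 reads (0.687 RPKM) in mature DC and 139 reads (3.09 RPKM) in immature DC, 4.5-fold lower (3.06 to 6.79). Elovl6 held 2.94% (2.03 to 4.11) of the pair's reads in mature DC and 7.57% (6.41 to 8.88) in immature DC.

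The desaturases of polyunsaturated fatty acids, neighbours on one chromosome, were both lower, Fads2 far more than Fads1. Fads1, the delta-5 desaturase, had 223 reads (7.95 RPKM) in mature DC and 837 reads (31.9 RPKM) in immature DC, 4.01-fold lower (3.45 to 4.67). Fads2, the delta-6 desaturase of the first step, had 16 reads (1.31 RPKM) in mature DC and 349 reads (30.6 RPKM) in immature DC. At 23.3-fold lower (14.1 to 41.2) it had the lowest ratio of all members. Per length, Fads1 was 6.05 times as high as Fads2 in mature DC and 1.04 times as high in immature DC. Fads2 held 6.69% (3.87 to 10.6) of the pair's reads in mature DC and 29.4% (26.8 to 32.1) in immature DC. Me1, the malic enzyme that supplies NADPH, was barely detected, with 8 reads in mature DC and 4 in immature DC, and was not compared.

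**Figure D3:**
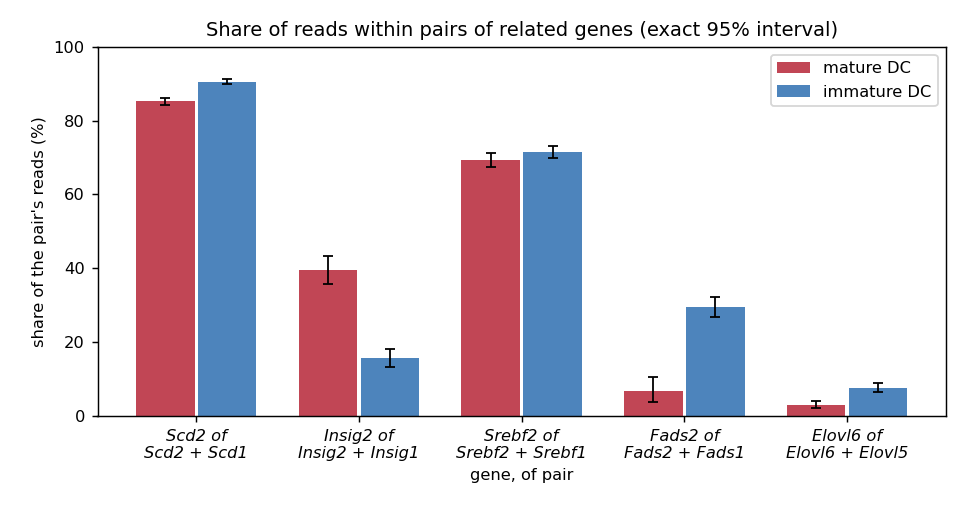
Share of the reads of 5 pairs of related genes that fell on the first gene of each pair, in percent, for mature DC (left bar) and immature DC (right bar), with exact 95% binomial intervals of the counts. The Insig2 share was 39.5% in mature DC and 15.6% in immature DC, the Fads2 share was 6.69% in mature DC and 29.4% in immature DC, and the Srebf2 intervals overlap.

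The branches can be set against the distribution of all compared genes. The squalene and sterol branch lay wholly below 0, from -2.04 (Cyp51) to -0.69, with a median of -0.96. The fatty acid and mevalonate branches each spread from strongly lower to level or higher.

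**Figure D4:**
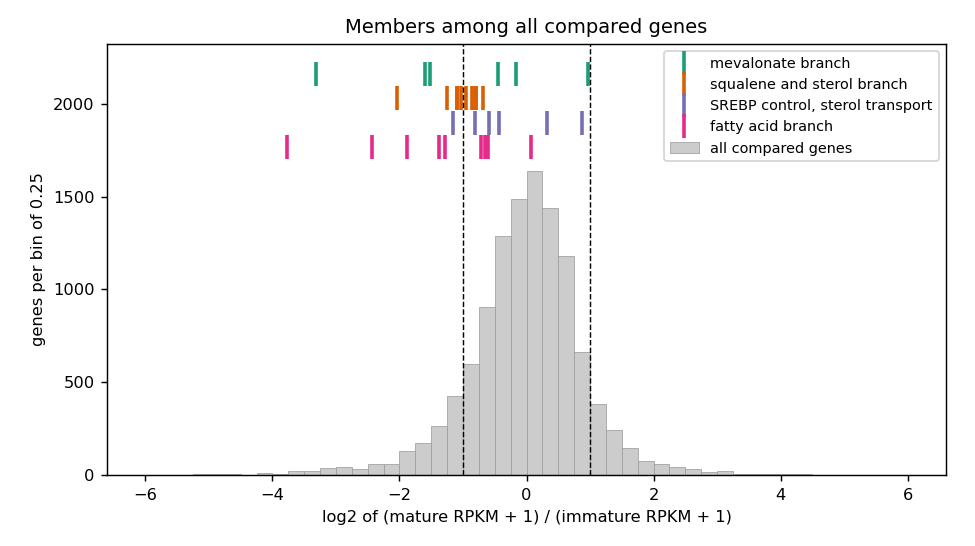
Histogram of log2 of (mature RPKM + 1) over (immature RPKM + 1) for the 11547 compared genes in bins of 0.25, with a tick for each of the 32 compared members by branch and dashed lines at 2-fold. The members' ticks lie mainly left of 0, and the squalene and sterol ticks fall between -2.04 and -0.69.

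Genes of the same pathways that are not members were described by fixed lists. Over all compared genes, 11.3% were at least 2-fold lower and 9.05% at least 2-fold higher. The list of other sterol genes is given only in part, so its counts do not describe the whole list: of 6 compared, 2 were at least 2-fold lower, 1 was higher and 3 lay within 2-fold. The mitochondrial thiolase gene Acat1 and the sterol-regulated gene Tmem97 had values 2.21-fold lower (1.98 to 2.47) in mature DC for Acat1 and 2.42-fold lower (1.79 to 3.31) for Tmem97. The higher one was Npc2, the lysosomal cholesterol carrier, at 432 RPKM in mature DC and 136 RPKM in immature DC.

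Of 20 other fatty acid synthesis genes compared, 4 were at least 2-fold lower, or 20% against 11.3% of all compared genes. Another 16 lay within 2-fold and 0 were higher, with a median of -0.41. The lower ones were Aacs, which activates acetoacetate (2.85-fold, 2.42 to 3.36), Acsl3, an acyl-CoA synthetase of lipid droplets (4.07-fold, 2.96 to 5.7), Me2, the mitochondrial malic enzyme (2.48-fold, 2.15 to 2.87), and Hsd17b12, the ketoreductase of chain elongation (2.14-fold, 1.94 to 2.36). Elovl7 was counted within 2-fold on the RPKM + 1 scale (log2 fold -0.93). Its plain ratio was 2.91-fold lower (2.01 to 4.29), on 40 reads in mature DC and 109 reads in immature DC. The other genes of SREBP processing, among them the proteases Mbtps1 and Mbtps2, all lay within 2-fold, 8 of 8 compared, with a median of 0.11. So did 9192 of all 11547 compared genes, so this is the common state and not particular to them.

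Markers of cell state and of other cells also differed between the libraries. Of 20 cell cycle genes, 20 were at least 2-fold lower, with a summed level of 122 RPKM in mature DC and 1006 RPKM in immature DC. Of 11 neutrophil and granulocyte precursor genes, 9 were lower, with sums of 2036 RPKM in mature DC and 8281 RPKM in immature DC, and none was at 0. Of 9 macrophage and monocyte genes compared, 4 were lower, with sums over the 10 listed of 702 RPKM in mature DC and 1286 RPKM in immature DC. The part of these cells and of cell division in the members' values was not tested. The hepatocyte genes summed to 0.293 RPKM in mature DC and had no reads in immature DC. The adipocyte genes Adipoq and Lep were not listed in either library and Plin1 and Cidec were under 0.1 RPKM; Lipe and Fabp4, which myeloid cells also express, made up nearly all of that list's 66.8 RPKM in mature DC and 32.7 RPKM in immature DC. T cell, B cell, NK cell, erythroid and stromal lists each summed to under 10 RPKM in either library; Hba-a1 was listed in neither, Pax5 and Klrb1c had 0 reads in mature DC, and Ncr1 and Pdgfra had 0 reads in immature DC. Of the 11 DC genes all were detected: 5 were at least 2-fold higher in mature DC, 2 were lower and 4 lay within 2-fold. Their sums were 12405 RPKM in mature DC and 12063 RPKM in immature DC. Ccr7 and Ccl22 were among the higher ones, and the lower ones were Itgax and Ccl17. Cd86, used in the sort, stood at 152 RPKM in mature DC and 26.1 RPKM in immature DC. The class II genes H2-Aa, H2-Ab1 and H2-Eb1 lay within 2-fold.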

How the data were processed

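RNA of 2 mouse DC libraries was analysed from 1 deposited table each. Per the file headers, the deposited tables give the count of uniquely placed reads per gene, the gene model length, a coverage value (percent of the model with reads) and RPKM. The deposited RPKM followed from the counts and the lengths in every row, within a relative deviation of 1.07e-07. The submitters' processing notes name build mm8; the aligner, counter, annotation and strandedness were not given there or in the labels. Symbols for 16219 of 18090 IDs came from RefSeq (GRCm38.p6). A gene missing from 1 table was set to 0 reads. Comparison was limited to genes at or above 1 RPKM in either library, with a pseudocount of 1 RPKM, in Python 3.11.15 with scipy 1.17.1. Intervals are Clopper-Pearson on the share of a gene's reads in each library. edgeR 4.0.16 and DESeq2 1.42.0 gave scaling factors only. The steps were tested on simulated data. Exon overlaps came from GENCODE vM21 (GRCm38). The text names all members and every other pathway gene at least 2-fold apart, except that a few genes of the pathway and marker lists are not reported here and were left out of those lists' counts. Members and lists were chosen with earlier results of these data known.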

Additional observations from a re-analysis of the deposited data

How the results depend on the processing

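No compared member changed sign under any pseudocount, filter or scaling tried. The number of members at least 2-fold lower was 14 as reported and between 10 and 15 under the alternatives, except 7 with a pseudocount of 5 RPKM and 4 at a 4-fold call (Cyp51, Fads2, Fasn and Fdps). Over all genes, a pseudocount of 5 RPKM gave 686 lower and 469 higher in place of 1310 and 1045, and a 4-fold call 316 and 197. The number at least 2-fold higher was 0, or 1 (Pmvk) when both libraries were set to the same summed RPKM. With a pseudocount of 5 RPKM the branch medians were -0.73 (squalene and sterol), -0.68 (fatty acid) and -0.55 (mevalonate), and the mevalonate median was -1.52 when 5 RPKM was required and -1.55 when 50% coverage was required. The members' median ranged from -0.93 to -0.69. Among 248 single values over 32 members, 8 values of 7 members lost the 2-fold call and 2 (Nsdhl and Pmvk) gained it. With 1 library per state there was no replicate to leave out. No paired analysis was possible because each state has 1 library. Depth limits Mvk, Fads2, Fdps, Elovl6, Acat2, Tm7sf2 and Me1, which had under 40 reads in mature DC.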

Other observations

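Farnesyl diphosphate also feeds the isoprenoid branch, which makes the prenyl groups of small GTPases, dolichol and ubiquinone. Of 12 genes of this branch compared, 11 lay within 2-fold and 0 were higher, with a median log2 fold of -0.065. At least 2-fold lower was 1 gene, or 8.33%, near the 11.3% of all compared genes. The lower one was Pdss1, of ubiquinone side chain synthesis, with 17 reads in mature DC and 67 reads in immature DC, 4.21-fold lower (2.44 to 7.64). Ggps1, which uses the product of Fdps, had 90 reads (4.67 RPKM) in mature DC and 74 reads (4.1 RPKM) in immature DC.

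LXR receptors respond to oxysterols. Of 7 genes listed with them, 1 was at least 2-fold higher (9.05% of all compared genes), 2 were lower (11.3% of all) and 4 lay within 2-fold. Those within 2-fold were Nr1h2, Nr1h3, Abcg1 and Mylip. Abca1, the cholesterol exporter, stood at 38.3 RPKM in mature DC and 7.36 RPKM in immature DC, a ratio of 5.2 (4.76 to 5.7). Lpcat3, a phospholipid acyltransferase, was 3.38-fold lower (2.95 to 3.87), and Ch25h, which makes the oxysterol that restrains SREBP processing, was 3.17-fold lower (2.12 to 4.86), on 33 reads in mature DC and 98 reads in immature DC.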
